A study of Mus musculus with 2 samples.

Results

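The heat shock chaperone genes followed here are 10 genes given by symbol: Hspa1a, Hspa1b, Hspa8, Hsph1, Hspb1, Dnajb1, Hsp90aa1, Hsp90ab1, Hspd1 and Hspe1. The rule used no measured value, and all 10 had 1 row each in the expression table, out of 32316 genes with a row. Liver RNA of male C57BL/6 mice was sequenced 48 hr after partial hepatectomy (PH), the surgical removal of most of the liver, after which the remnant regrows. The libraries were 1 from wild-type (WT) liver and 1 from liver of mice lacking peroxisome proliferator-activated receptor β (PPARβ-null, KO), both labelled with an age of 4 months. Both groups shared the strain, the sex, the surgery and free access to food, and they differed in genotype. How the null allele was made, and whether livers were pooled, is not given in the sources used here. The table names a different sequencing lane for each library, so lane and genotype cannot be told apart. With 1 library per genotype there is no spread between mice and no test, and each ratio below describes these 2 libraries.

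Chaperones are proteins that hold other proteins while they fold. Hsp70 proteins bind exposed stretches of a client in a cycle driven by ATP, J-domain proteins such as Dnajb1 bring clients and start the hydrolysis, Hsp110 proteins such as Hsph1 release the spent nucleotide, and Hsp90 takes over clients such as kinases and steroid receptors. Hspd1 and Hspe1 form the barrel and the lid of the mitochondrial folding chamber, and Hspb1 is a small heat shock protein that keeps unfolded proteins soluble. After heat or another insult to proteins, heat shock factor 1 (Hsf1) binds repeats of the letters GAA and TTC in the promoters of these genes, the heat shock elements. Hspa1a and Hspa1b are the classic inducible genes, whereas Hspa8 and Hsp90ab1 are made at all times.

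Promoter windows of some members are shown first, as promoters are where the letters that heat shock factors read are found. RefSeq windows on build GRCm38.p6, from 250 bases before to 50 bases after an annotated start, were found for 7 members, with 10 starts in all. No window was matched for Hspa8, Hsp90aa1 and Hsp90ab1. Capitals mark every match to GAANNTTC or TTCNNGAA, each of which reads the same on both strands. Hspa1a and Hspa1b were the members with the lowest KO/WT ratios, Hspb1 and Hsph1 were higher in KO, and Hspe1 shares its promoter with Hspd1. Hspe1, with a ratio of 0.726, was not at an end of the range. Every window shown holds a match. The windows without a match, both of Dnajb1 and the first of Hspd1, are not shown, though Dnajb1 had a lower ratio than Hspe1, at 0.668.
Hspa1a, chr17:34972107-34972406, minus strand: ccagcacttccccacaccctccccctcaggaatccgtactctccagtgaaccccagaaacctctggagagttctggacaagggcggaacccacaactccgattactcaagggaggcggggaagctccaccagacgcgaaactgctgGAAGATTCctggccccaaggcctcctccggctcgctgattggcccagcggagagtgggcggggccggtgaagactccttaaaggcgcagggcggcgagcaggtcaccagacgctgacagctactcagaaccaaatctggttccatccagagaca
Hspa1b, chr17:34959189-34959488, minus strand: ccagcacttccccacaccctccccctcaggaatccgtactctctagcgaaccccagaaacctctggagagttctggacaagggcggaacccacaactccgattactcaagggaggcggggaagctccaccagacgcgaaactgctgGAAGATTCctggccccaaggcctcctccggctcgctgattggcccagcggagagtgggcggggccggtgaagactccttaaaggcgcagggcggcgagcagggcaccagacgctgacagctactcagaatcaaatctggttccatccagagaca
Hspb1, chr5:135887669-135887968, plus strand: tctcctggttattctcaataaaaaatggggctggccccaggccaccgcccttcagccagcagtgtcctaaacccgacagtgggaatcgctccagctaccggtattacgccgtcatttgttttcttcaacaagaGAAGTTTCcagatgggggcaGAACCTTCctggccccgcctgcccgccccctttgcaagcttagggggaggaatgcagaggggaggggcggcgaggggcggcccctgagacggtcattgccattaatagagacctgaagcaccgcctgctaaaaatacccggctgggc
Hsph1, first of its annotated starts, chr5:149636287-149636586, minus strand: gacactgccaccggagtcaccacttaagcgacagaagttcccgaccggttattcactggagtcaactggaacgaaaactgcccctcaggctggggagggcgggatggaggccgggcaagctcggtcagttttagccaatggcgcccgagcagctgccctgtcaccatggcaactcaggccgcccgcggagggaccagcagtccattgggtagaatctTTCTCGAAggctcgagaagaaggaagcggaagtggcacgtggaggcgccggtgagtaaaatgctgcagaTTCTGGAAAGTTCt
Hspe1, chr1:55087898-55088197, plus strand: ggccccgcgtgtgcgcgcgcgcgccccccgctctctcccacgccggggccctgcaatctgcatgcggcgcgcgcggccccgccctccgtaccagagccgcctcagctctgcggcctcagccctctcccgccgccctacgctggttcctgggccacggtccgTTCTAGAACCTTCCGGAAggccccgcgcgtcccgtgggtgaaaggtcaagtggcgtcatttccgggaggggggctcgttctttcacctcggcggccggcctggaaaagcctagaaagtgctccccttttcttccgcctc

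The windows of Hspa1a and Hspa1b differed at 4 of 300 bases, and both held the match GAAGATTC 104 bases before the start. Hspb1 held GAAGTTTC 117 and GAACCTTC 97 bases before its start. Hsph1 held TTCTCGAA 33 bases before the start, and TTCTGGAA and GAAAGTTC overlapping after it. In the Hspe1 window, 3 overlapping matches formed the run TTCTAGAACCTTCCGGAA of 18 bases. The second annotated start of Hspd1 lies on the other strand and shares 285 bases with this window, so the same run reads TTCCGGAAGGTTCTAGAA on the Hspd1 strand. In total, 7 of the 10 windows and 6 of the 7 members held either match, Dnajb1 being the other member. These counts hold the same matches more than once. Hspa1a and Hspa1b have near-identical windows, and Hspe1 and Hspd1 share a run. The windows at both Hsph1 starts overlap and hold the same matches. Of all 32851 promoter windows in that table, 7.86% held GAANNTTC, 8.52% held TTCNNGAA and 15.1% held either. These matches are a description of letters, and binding was not measured.

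The values are FPKM, fragment numbers scaled to transcript length and to library size, as the authors estimated them per locus. On this scale, which takes account of length, 1 fragment on a transcript of 1 kb was worth about 0.0191 FPKM in WT and 0.019 FPKM in KO. Ppard, the targeted gene, reached 2.67 FPKM in WT and 2.42 FPKM in KO, so its level does not check the labels. Hepatocyte markers were abundant in both libraries. Over the 7 of 8 markers that had a value, the sum was 16307 FPKM in WT and 18972 FPKM in KO. Of these 7 markers, 5 were higher and 2 lower in KO, beside 24.3% and 75.7% of the genes with a mean of 1 FPKM or more. By at least 1.5-fold, 1 marker was higher and 1 lower, beside 4.12% and 20.2% of those genes. A mean of 1 FPKM or more was reached by 11073 genes, called all genes from here on, and by all 10 members. With 0.1 FPKM added to each value, the log2 KO/WT of all genes had a median of -0.24. Bringing the libraries to equal upper quartiles shifted every log2 ratio by 0.22, so each member is also given relative to the median of all genes. In bulk liver RNA, fewer cells of a type and less RNA per cell cannot be told apart.

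Heat shock chaperone mRNA spanned a wide range of expression in regenerating liver, from percentile 10.0 of all genes by mean level for Hspa1a to percentile 99.1 for Hspa8. Of the 10 members, 8 were lower in KO than in WT and 2 were higher, beside 75.7% of all genes lower and 24.3% higher in KO, and 1 of the 8, Hsp90ab1, turned to higher with equal upper quartiles or relative to the median of all genes. Those that differed by at least 1.5-fold were Hspa1a and Hspa1b, both lower in KO, where 20.2% of all genes were lower by as much. Both were also past 2-fold, as were 8.89% of all genes. No member was higher in KO by 1.5-fold or 2-fold, while 4.12% and 1.74% of all genes were. With equal upper quartiles these shares past 1.5-fold became 12.8% lower and 7.04% higher. The median log2 KO/WT of the members was -0.44, against -0.24 over all genes. Summed over the 10 members, the level was 1754 FPKM in WT and 1400 FPKM in KO, a ratio of 0.798, and 97.1% of the WT sum came from 5 genes, Hspa8, Hsp90ab1, Hspd1, Hspe1 and Hsp90aa1.

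**Figure D1:**
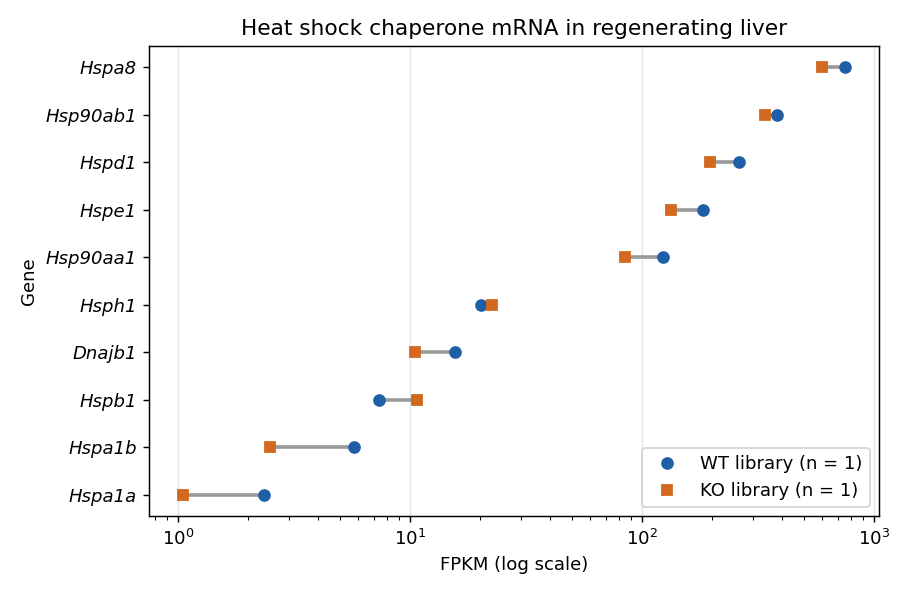
FPKM (x axis, log scale) of each of the 10 heat shock chaperone genes (y axis, ordered by mean) in the WT library (circles) and the KO library (squares), with 1 library per genotype and no error bars. Hspa8 is highest at 753 and 599 FPKM, Hspa1a lowest at 2.34 and 1.05, and the square lies to the right of the circle for Hsph1 and Hspb1, and for Hsp90ab1 it would do so with equal upper quartiles.

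The inducible Hsp70 genes showed the largest fold of all members. Hspa1b (chromosome 17, 35093943 to 35096181 as a locus on NCBIM37, 1 exon) reached 5.72 FPKM in WT and 2.50 FPKM in KO, which was 2.29-fold lower in KO. Its neighbour Hspa1a (chromosome 17, 35106144 to 35109069, 1 exon) had 2.34 in WT and 1.05 in KO, which was 2.23-fold lower. About 840 fragments in WT and 369 in KO stood behind Hspa1b, and about 359 and 161 behind Hspa1a. From these estimates the 95% exact interval of the KO/WT ratio, for counting error only, was 0.386 to 0.494 for Hspa1b and 0.368 to 0.539 for Hspa1a. Relative to the median of all genes, the ratio was 0.518 for Hspa1b and 0.530 for Hspa1a. Among all genes the log2 KO/WT of Hspa1b stood at percentile 6.57 and that of Hspa1a at 7.32, so both were in the lower tail but not at its end.

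These 2 genes are close copies and their values are not independent. Their coding sequences were 99.4% identical, and 49.3% of all windows of 100 bases, the read length, along the Hspa1a mRNA occurred letter for letter elsewhere in the genome, as did 49.9% along Hspa1b. Reads from such stretches can belong to either gene. Taken as 1 unit, Hspa1a and Hspa1b had a sum of 8.06 FPKM in WT and 3.55 FPKM in KO, which was 2.27-fold lower in KO. The ratio of Hspa1b to Hspa1a was 2.45 in WT and 2.39 in KO. As shared reads can be assigned to either gene, these values cannot show whether the split between the genes differed. A pseudocount of 1 FPKM, which weighs on low genes, raised the KO/WT ratio of Hspa1a to 0.613.

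Both genes lie on the chromosome of the targeted gene, 6.65 and 6.67 Mb beyond the end of Ppard, and Hsp90ab1 lies 17.3 Mb beyond it. For the 270 genes other than Ppard within 10 Mb of it the log2 KO/WT had a median of -0.26, and 21.5% were at least 1.5-fold lower in KO, compared with 20.2% of all genes. What strain the chromosome around the null allele comes from is not given in the sources used here, and its part in the values was not tested.

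Hspa8, the constitutive Hsp70 that folds newly made proteins and uncoats clathrin vesicles, was the most abundant member. Its locus on chromosome 9 (40609067 to 40613285, 9 exons) reached 753 FPKM in WT and 599 FPKM in KO, a KO/WT ratio of 0.796. The row also names Snord14c, Snord14d and Snord14e, snoRNA genes within Hspa8, so the value is that of a joint locus. Relative to the median of all genes the ratio was 0.942. The Hspa8 mRNA was 93.4 times as abundant as Hspa1a and Hspa1b together in WT and 169 times as abundant in KO, on the FPKM scale. Between the libraries the level of Hspa8 thus differed by less than that of the inducible genes.

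The partners of Hsp70 went in different directions. Dnajb1, the J-domain protein induced together with Hspa1a (chromosome 8, 86132074 to 86135801, 3 exons), reached 15.7 FPKM in WT and 10.5 FPKM in KO. It was 1.496-fold lower in KO, which lies just short of the 1.5-fold line, and its log2 ratio stood at percentile 19.9 of all genes. Hsph1, the Hsp110 nucleotide exchange factor (chromosome 5, 150416862 to 150438951, 18 exons), reached 20.3 FPKM in WT and 22.6 FPKM in KO, a ratio of 1.11. Relative to the median of all genes Hsph1 was 1.32-fold higher in KO and Dnajb1 had a ratio of 0.791. Neither mRNA has a near-identical copy, as no window of 100 bases of Hsph1 or Dnajb1 was found elsewhere in the genome even with 2 mismatches.

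Hspb1, the small heat shock protein that also binds actin (chromosome 5, 136363789 to 136365433), was the member with the highest KO/WT ratio. It reached 7.38 FPKM in WT and 10.7 FPKM in KO, a ratio of 1.45, with about 359 and 523 fragments behind the values. The 95% exact interval for counting error only was 1.26 to 1.66. Its log2 ratio stood at percentile 95.4 of all genes. Relative to the median of all genes Hspb1 was 1.71-fold higher in KO, and with equal upper quartiles 1.69-fold, so under these scalings it passed the 1.5-fold line. Of the Hspb1 mRNA, 48.7% of the windows of 100 bases recur letter for letter elsewhere, and 1 place on chromosome 13 (45173739 to 45174537), where the table has no row, holds at least 50% of the mRNA.

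The Hsp90 genes of the cytosol differed less between the libraries than Hspa1a and Hspa1b. Hsp90aa1, the inducible form (chromosome 12, 111928815 to 111940938, 11 exons), reached 123 FPKM in WT and 84.7 FPKM in KO, a ratio of 0.687. Hsp90ab1, the constitutive form (chromosome 17, 45704724 to 45710220, 11 exons), reached 380 FPKM in WT and 338 FPKM in KO, a ratio of 0.889 that turned to 1.04 with equal upper quartiles and to 1.05 relative to the median of all genes. The ratio of Hsp90ab1 to Hsp90aa1 was thus 3.09 in WT and 3.99 in KO, a comparison that no scaling of the libraries changes. Their coding sequences were 75.7% identical, and no window of 100 bases of Hsp90ab1 was found letter for letter elsewhere, while 60.4% of those of Hsp90aa1 were.

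Hspd1 (Hsp60) and Hspe1 (Hsp10) are transcribed away from each other out of the shared promoter shown above. Hspd1 reached 263 FPKM in WT and 197 FPKM in KO, a ratio of 0.750, and Hspe1 had 183 in WT and 133 in KO, with a ratio of 0.726. The ratio of Hspd1 to Hspe1 was 1.44 in WT and 1.49 in KO. The annotated genes overlap by 112 bases on opposite strands of chromosome 1, and both rows carry the same span, 55134678 to 55148151. Relative to the median of all genes the ratios were 0.888 and 0.859.

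**Figure D2:**
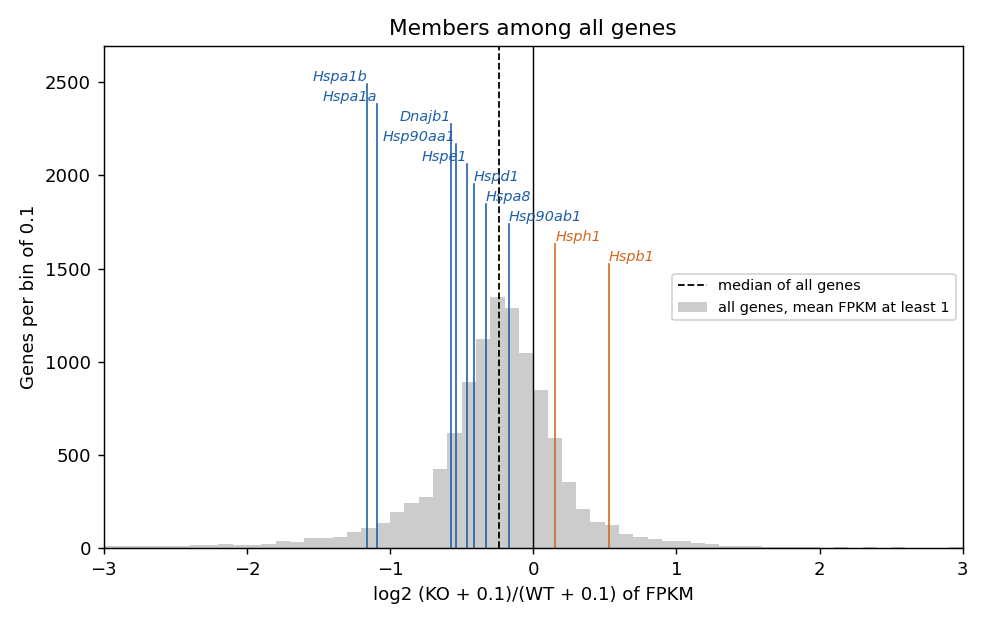
Number of genes (y axis, bins of 0.1) by log2 KO/WT of FPKM with a pseudocount of 0.1 (x axis) for the 11073 genes with a mean of 1 FPKM or more, of which 164 lie below -3 and 7 above 3. Labelled lines mark the 10 members and the dashed line the median of all genes at -0.24, with Hspa1b at -1.16 and Hspa1a at -1.09 on the left and Hspb1 at 0.53 on the right.

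Since chaperone mRNAs have many processed copies in the genome, the rows at such places were read as well. Of the members, 7 had windows of 100 bases that recur exactly elsewhere, from 20.4% of the Hspe1 mRNA to 63.8% of the Hspa8 mRNA. With up to 2 mismatches the highest share was 87.9%, for Hspd1. For Hspa8, 11 places held at least 50% of its mRNA, and the table had rows at 4 of them, which summed to 288 FPKM in WT and 228 FPKM in KO, a KO/WT ratio of 0.790. Among these were Gm15459 (125 in WT and 100.0 in KO) and Gm8355 (115 and 90.6). Gm12141, at a copy of Hspd1, had 32.5 in WT and 23.1 in KO, and Gm5844, at a copy of Hsp90aa1, had 11.2 and 7.84. The ratios at these copies, 0.711 for Gm12141 and 0.698 for Gm5844, lay near those of the genes they copy, and whether their reads came from the copies or from the parent genes cannot be told apart. These 4 loci were named after their values were seen. Adding the rows at copies to the members moved the ratio of Hspd1 to 0.745 and left the number of members past 1.5-fold at 2.

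**Figure D3:**
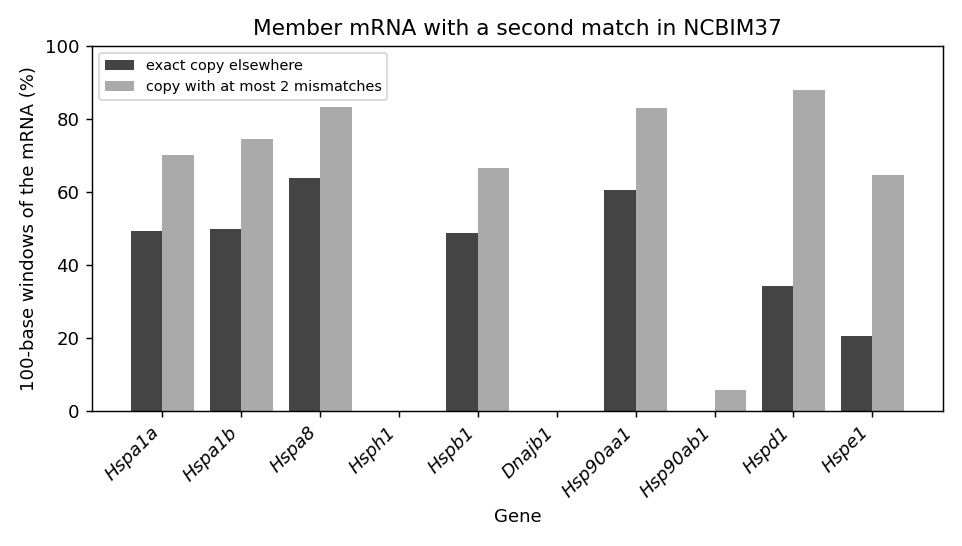
Share of all windows of 100 bases along the longest coding transcript of each member (x axis) that occur elsewhere in the genome (y axis, percent), letter for letter (dark bars) or with at most 2 mismatches (light bars). Hspa8 and Hsp90aa1 have the highest exact shares, at 63.8% and 60.4%, and Hsph1 and Dnajb1 have none.

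The heat shock factors, which drive the inducible members, were read next. Hsf1, the main stress factor, reached 6.00 FPKM in WT and 5.71 FPKM in KO, a ratio of 0.951, and Hsf2, a factor known from development, had 7.70 and 8.37. Relative to the median of all genes both were higher in KO. Hsf4, known from the lens, had 4.41 in WT and 2.15 in KO, and of the 4 listed genes with a mean of 1 FPKM or more it was the one to pass 1.5-fold. Hsbp1, which binds Hsf1 and limits it, had 46.3 and 38.5. Hsf5 and Hsf2bp were low, with 0.0375 and 0.0179 for Hsf5 and 0.217 and 0.559 for Hsf2bp. Hsf1 is activated as a protein, which RNA does not measure.

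Other heat-inducible genes did not share one direction. Of the 16 genes on that list, all with a mean of 1 FPKM or more, 4 were at least 1.5-fold lower and 1 higher in KO. Of all genes, 20.2% were lower and 4.12% higher by as much. The median log2 KO/WT of the list was -0.13, which the shift of 0.22 under equal upper quartiles takes above 0. The polyubiquitin gene Ubb, the most abundant, reached 270 FPKM in WT and 406 FPKM in KO and was the one past the line on the higher side. Hspb8, a small heat shock protein that works with Bag3 in selective autophagy, had 123 and 164. Hspa4l, of the Hsp110 family, had the lowest ratio, with 10.7 in WT and 5.02 in KO. The others past the line on the lower side were Fkbp4, Cryab and Serpinh1, with KO/WT ratios of 0.662, 0.633 and 0.664, of which Cryab and Serpinh1 were named after their values were seen.

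Of the other cytosolic Hsp70 and Hsp110 genes, 3 of 7 had a mean of 1 FPKM or more, namely Hspa4 (46.7 in WT and 39.9 in KO), Hspa14 (14.8 and 7.46) and Hspa4l. Hspa14, which acts at the ribosome, and Hspa4l were past 1.5-fold lower in KO, and the median log2 KO/WT of these 3 genes was -0.98. Of the other J-domain genes of classes A and B, 8 of 11 reached that level and none passed 1.5-fold. Dnaja1, the most abundant, had 96.2 in WT and 98.6 in KO. Dnajb4 had the highest ratio of this list, with 17.0 and 19.2, and Dnaja4 the lowest, with 1.40 and 0.960. Of the other small heat shock proteins, 4 of 9 reached a mean of 1 FPKM, and 2 of them, Hspb6 and Cryab, were past 1.5-fold lower. Hspb6, known from muscle, had the lowest ratio with 11.6 in WT and 4.24 in KO, whereas Hspb8 was higher in KO. Some genes stand on more than 1 chaperone list, so the lists are not separate groups. Hspa4l, Cryab and Fkbp4, counted as lower among the other heat-inducible genes, count again on their family or co-chaperone list.

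Medians of the co-chaperone lists lay near that of all genes. Among 19 partners of Hsp90 the median log2 KO/WT was -0.26, with 2 genes past 1.5-fold lower and none higher. Fkbp8, a peptidyl-prolyl isomerase, reached 127 FPKM in WT and 104 FPKM in KO, and the steroid receptor immunophilin Fkbp4 had 80.5 and 53.3. The highest ratio of the list was that of Fkbp5, a glucocorticoid-induced immunophilin, with 25.6 in WT and 35.5 in KO, and the lowest that of Pih1d1, with 28.3 and 16.8. Among 9 partners of Hsp70 the median was -0.30, and Bag2 was the gene past 1.5-fold, with 1.5 in WT and 0.758 in KO. Bag1 had 40.8 and 40.9, and St13, which links Hsp70 with Hsp90, had 65.1 and 52.9.

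Chaperones of other kinds were compared to see where the members differ. TRiC is the chaperonin that folds actin and tubulin, and prefoldin delivers to it. Among 13 of their subunits, 12 (92.3%) were lower in KO, beside 75.7% of all genes. Their median log2 KO/WT was -0.27. With equal upper quartiles it became -0.054, where that of all genes was -0.024. Tcp1 reached 90.5 FPKM in WT and 74.9 FPKM in KO, and Vbp1, a prefoldin subunit, had the lowest ratio with 14.5 and 7.53. Among 12 other mitochondrial chaperones and proteases the median was -0.23 and none passed 1.5-fold. Hspa9, the mitochondrial Hsp70, had 219 in WT and 154 in KO, with a ratio of 0.704 that lay beside those of Hspd1 and Hspe1. Clpx, a subunit of a matrix protease, had the highest ratio, with 50.8 and 70.7.

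Chaperones of the endoplasmic reticulum lay on the other side, with 10 of 17 genes higher in KO, beside 24.3% of all genes, and a median log2 KO/WT of 0.22. None was higher by 1.5-fold, and 1 was lower by as much, Dnajc10, a disulfide reductase, with 13.7 FPKM in WT and 9.03 FPKM in KO. P4hb, a disulfide isomerase, reached 516 FPKM in WT and 688 FPKM in KO, and Calr, a lectin chaperone, had 349 and 503. Hspa5, the Hsp70 of this compartment, had 395 and 378, and Hsp70 of the cytosol and of the mitochondria thus had lower KO/WT ratios than Hspa5, at 0.796 for Hspa8 and 0.704 for Hspa9 against 0.955. The difference between the lists was not tested, as there is 1 library per genotype. Counting each gene once, 76 chaperone system genes outside the members and this compartment had a mean of 1 FPKM or more. Their median log2 KO/WT was -0.26, beside -0.24 for all genes. Of these 76, 11 (14.5%) were past 1.5-fold lower and 1 higher, beside 20.2% and 4.12% of all genes.

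**Figure D4:**
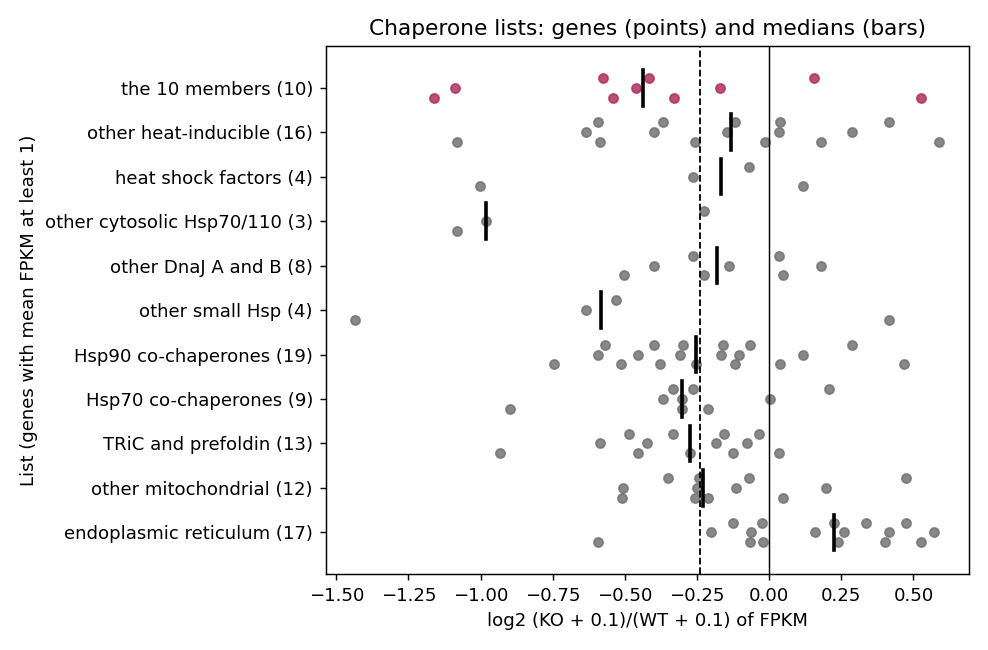
Log2 KO/WT of FPKM with a pseudocount of 0.1 (x axis) for single genes (points) of the 10 members and of 10 other chaperone lists (y axis, number of genes with a mean of 1 FPKM or more in brackets), with a bar at the median of each list and a dashed line at the median of all genes, -0.24. The median of the members is -0.44 and that of the endoplasmic reticulum list 0.22, the only median to the right of 0 as plotted. With equal upper quartiles the medians of the heat shock factors (0.0495), other heat-inducible genes (0.0845) and other DnaJ genes (0.0362) also lie above 0. Some genes stand on more than 1 list and are drawn in each.

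Several other gene groups differed between the same libraries, and their part in the values of the members was not tested. All 6 proliferation genes were lower in KO, as were 75.7% of all genes. They summed to 155 FPKM in WT and 1.96 FPKM in KO. Of the cold-inducible RNA-binding proteins, which are known to rise as body temperature falls, Rbm3 reached 34.1 FPKM in WT and 15.3 FPKM in KO, and Cirbp had 6.29 and 6.70. Several heat shock genes are known to cycle over the day. Clock genes differed widely, with 7 of the 11 that had a mean of 1 FPKM or more past 1.5-fold lower in KO and 1 higher. The shares of all genes past that line were 20.2% lower and 4.12% higher. Dbp had 14.8 in WT and 2.11 in KO, Per3 had 3.18 and 0.388, Per1 had 10.6 and 4.31, and Per2 had 3.60 and 1.79. Tef had 28.4 and 10.9, Nr1d2 had 24.9 and 11.5, and Cry2 had 6.94 and 3.81. In the other direction, Arntl had 2.64 in WT and 6.18 in KO, Npas2 had 0.247 and 0.842, Nr1d1 had 21.4 and 30.9, and Cry1 had 2.90 and 3.75. Clock had 10.4 and 9.69. The time of day at which the livers were taken is not given in the sources used here.

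Markers of cells other than hepatocytes were mostly lower in KO, as were 75.7% of all genes. Of those markers with a mean of 1 FPKM or more, 1 macrophage, 1 endothelial and 1 erythroid marker were higher in KO. Past 1.5-fold lower were 5 of 6 macrophage, 5 of 6 endothelial, 2 of 2 neutrophil and 2 of 5 stellate cell markers at that level. The same held for 1 of 3 cholangiocyte and 0 of 4 erythroid markers, beside 20.2% of all genes. Past 1.5-fold higher was 1 erythroid marker, beside 4.12% of all genes. The summed FPKM of 6 macrophage markers was 52.8 in WT and 33.8 in KO, that of 6 endothelial markers 28.4 and 17.5, and that of 5 stellate cell markers 25.1 and 13.0. The 5 cholangiocyte markers summed to 29.8 and 25.7, and the 6 erythroid markers to 427 and 355. Neutrophil markers summed to 12.9 in WT and 6.93 in KO, with Ly6g and Mpo listed at 0 in both libraries, and lymphocyte markers to 0.523 and 0.299. The share of the members' RNA that came from such cells was not tested.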

How the data were processed

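RNA from 1 WT and 1 KO liver library was sequenced by the authors. The surgery and the time after it come from the paper, the groups from the labels. Per the labels and the paper's methods, reads of 100 bp were aligned with TopHat 2.0.0 to NCBI37 (mm9), and Cufflinks 1.3.0 and Cuffdiff gave 1 FPKM per locus and library, the values deposited by the authors. The labels describe paired end reads and the methods single end reads. The deposited table also holds the authors' own fold changes, statistics, p-values and q-values, which were not used. Of 38016 loci, 21 marked HIDATA were left out as failed estimates, and no member was among them. Rows of 1 symbol were summed, 850 loci naming several symbols gave their value to each, and symbols sharing the same rows were counted once.

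Ratios are KO/WT of the deposited FPKM. Medians used log2 with a pseudocount of 0.1 FPKM over genes with a mean of 1 FPKM or more, which understates the change of low genes. A gene was counted as past the fold at 1.5. Depth was estimated from the pile-up of low values of single-exon genes of 300 to 3000 bases at multiples of 1 fragment, with 395 such values in WT and 371 in KO. Fragment numbers are FPKM times the length of the longest coding transcript in GENCODE vM1 (NCBIM37), hence approximate. Intervals are exact conditional binomial intervals of 95% and cover counting error only. Copies were sought with blastn 2.17.0 at 85% identity or more. Scripts ran under Python 3.11.15 with pandas 2.3.3, numpy 2.4.6, biopython 1.88, scipy 1.17.1 and matplotlib 3.10.9. Gene ratios, the share past the fold and the depth estimate were tested on simulated data. How well the depth estimate holds for the 2 libraries themselves was not tested. Coordinates are on NCBIM37 and counted from 1, except those of the promoters, which are on GRCm38.p6.

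The members and lists were chosen with earlier results of these data known. The genes named were the members, Ppard, the heat shock factors, the cold-inducible and clock genes, and of each other chaperone list those among the 3 highest in mean FPKM or with the largest fold in either direction, of which a part is printed; markers and proliferation genes are given as sums. Others are said to be named after their values were seen. Alternatives covered scaling, pseudocount, filter, fold, the handling of rows and copies. The values of 1 gene that this rule names are not reported here.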

Additional observations from a re-analysis of the deposited data

How the results depend on the processing

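No library could be left out, as each genotype has 1. No paired analysis was possible because each group has a single sample. With equal upper quartiles the number of members past 1.5-fold higher in KO went from 0 to 1 (Hspb1), the median log2 KO/WT of all genes to -0.024, and the shares of all genes past 1.5-fold to 12.8% lower and 7.04% higher in KO, from 20.2% and 4.12%. Centring on the median of all genes likewise gave 1 member higher in KO and shares of 12.2% and 7.52%. With Hspa1a and Hspa1b summed, 1 member was past 1.5-fold lower. A 2-fold threshold gave shares of 8.89% and 1.74%, and no filter on FPKM gave 32.6% and 11.4%, since more low genes enter. The number of members lower in KO past the fold was 2 with the 2-fold threshold, each scaling, the highest row of each symbol, rows naming 1 symbol, and the addition of copies, which was chosen after seeing the data. It was not counted under other pseudocounts or filters, and a minimum mean of 5 FPKM would leave out both Hspa1a and Hspa1b. Hspa8 has no value when joint loci are left out. Hsp90ab1 was the only member whose direction turned with the scaling. Of the recomputed ratios of single members, 49 stayed within the counting interval, 20 moved above it and 0 moved below it. For Hspa8 that interval was 0.788 to 0.803, while the alternatives moved its ratio between 0.794 and 0.942.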

Other observations

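Several chaperone genes on the lists above had a mean under 1 FPKM in regenerating liver and entered no count, and they were named after their values were seen. Hspa1l, the testis Hsp70 next to Hspa1a, reached 0.241 FPKM in WT and 0.161 FPKM in KO. Its neighbours Hspa1a and Hspa1b were thus 9.70 and 23.7 times as abundant in WT, and 6.52 and 15.6 times as abundant in KO. Hspa2, another Hsp70 known from testis, had 1.52 in WT and 0.461 in KO, which was 3.29-fold lower in KO. Hspa12a had 0.387 and 0.179, and Hspa12b 0.582 and 0.428. Cryaa, Hspb3 and Dnajb8 were listed at 0 in both libraries. Dnajb7 had 0.112 in WT and 0.0480 in KO, Dnajb13 had 0.0674 and 0.0642, Hspb2 had 0.156 and 0.126, Hspb7 had 0.0575 and 0.0165, and Hspb9 had 0.0689 and 0.0238. With 1 library per genotype these values were not tested.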
